A study of Mus musculus with 4 samples.

Results

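The aminoacyl-tRNA synthetases are the enzymes that load each tRNA with its amino acid. They were taken from the count table as the protein-coding genes whose symbol is that of a synthetase, from Aars to Yars2. The rule gave 37 of 21936 protein-coding genes, 20 for the cytosolic enzymes and 17, with symbols that end in 2, for the mitochondrial enzymes. All 37 passed the filter on low counts and were among the 16157 genes tested.

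A synthetase joins an amino acid to the matching tRNA in an ATP-consuming reaction, and ribosomes can use only a charged tRNA. Cells keep separate sets of enzymes for the cytosol and for the mitochondrial matrix, both encoded in the nucleus, and the mitochondrial set serves the few proteins made from mitochondrial DNA, which are subunits of the oxidative phosphorylation complexes. Gars and Kars each encode the enzyme of both compartments, Eprs encodes a fused glutamyl- and prolyl-tRNA synthetase, and mitochondria charge their glutamine tRNA through Ears2 and an amidotransferase. Uncharged cytosolic tRNA activates the kinase GCN2, and the transcription factor ATF4 that is then made induces many cytosolic synthetase genes in mammalian cells.

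The libraries came from skeletal progenitors of the hindlimbs of mouse pups at postnatal day 1, sorted as live Prx1+CD45-Tie2-Ter119- cells. Prx1-Cre, active in limb mesenchyme, deletes Ecsit, whose protein helps to assemble complex I of the respiratory chain, and all animals carried the Rosa26mTmG reporter. By their titles 2 libraries are WT (WT 2 and WT 3) and 2 are cKO (cKO 2 and cKO 3), but the genotype field gives EcsitPrx1;Rosa26mTmG for the libraries titled WT and Ecsitfl/fl;Rosa26mTmG for those titled cKO. The paper gives Prx1;Rosa26mTmG, with Ecsit+/+, for its sorted WT cells and EcsitPrx1;Rosa26mTmG for its cKO cells, both sorted as GFP-expressing. Ecsitfl/fl;Rosa26mTmG as written names no Cre and matches neither. The titles are used here, and whether a library is a single pup or a pool was not given, so that p-values measure only the spread between these libraries.

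Ecsit itself had 253 and 383 counts in the libraries labelled WT and 604 and 539 in those labelled cKO, or 12.6, 18.9, 33.6 and 30.2 CPM (the count relative to library size, here after TMM scaling). It was higher in the libraries labelled cKO, with a log2 fold change of 1.02 (SE 0.25, edgeR, Benjamini-Hochberg adjusted p = 0.0245). The call was lost with total counts in place of TMM (0.74, edgeR adjusted p = 0.0534), with no filter on low counts (adjusted p = 0.0557), without cKO 2 (adjusted p = 0.161) and without cKO 3 (adjusted p = 0.0974), each with the fold change still above 0. Both libraries labelled cKO lay above both labelled WT, an order that goes against the titles and not against the genotype field. Where the exon removed by Cre lies was not given in the sources used here, so reads from the rest of the gene may still be counted. Every direction given below is for libraries labelled cKO against libraries labelled WT and would turn if the titles were exchanged.

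The libraries held 18266573 to 20152872 counts. The pair labelled WT was less alike (r = 0.975 across genes) than the pair labelled cKO (r = 0.994). Cytosolic ribosomal protein genes took 3.24% and 6.33% of the counts in the libraries labelled WT and 10.2% and 10.3% in those labelled cKO. Of 10 skeletal progenitor markers edgeR called 0, with 2 lower at an unadjusted p under 0.05, and DESeq2 called 1, Twist2, lower. With total counts in place of TMM edgeR called 4 of them lower, beside 23.9% of all genes. Their summed level was 46993 and 47526 CPM in WT 2 and WT 3 and 53268 and 46302 CPM in cKO 2 and cKO 3, most of it from Col1a1 and Col3a1. In 4 of the 10 both libraries labelled cKO lay below both labelled WT, and in 2 above, beside 36.2% and 36.3% of all genes tested. Among the 4 were Prrx1 (265 and 264 against 213 and 194 CPM) and Pdgfra (481 and 371 against 291 and 296 CPM). With the exon-length correction described below the log2 fold changes of Prrx1 and Pdgfra were 0.22 and 0.01. The others of the 4, Pdgfrb and Twist2, stayed below 0 under it, at -0.30 and -1.21. Of the 10 markers that correction called 1 lower, Twist2 (edgeR adjusted p = 0.0301), and 1 higher, Col3a1 (0.83, edgeR adjusted p = 0.0424). Over all genes tested edgeR called 14.1% higher and 14.3% lower. Skeletal muscle markers were called higher for 5 of 8 tested, Acta1, Ckm, Mylpf, Tnnt3 and Myog, and their summed level went from 16.4 and 17.3 CPM to 106 and 114 CPM. Erythroid markers were higher for 5 of 7 tested (606 to 685 against 1918 to 2020.5 CPM in sum), haematopoietic for 2 of 6 (7.19 to 8.28 against 12.4 to 13.1 CPM) and endothelial for 1 of 10, Egfl7 (67.0 to 76.2 against 76.4 to 82.3 CPM). DESeq2 called 5 erythroid and 0 haematopoietic markers higher, beside 13.5% of all genes. With the correction for principal transcript length described below 1 erythroid, 0 haematopoietic, 3 endothelial and 4 muscle markers were called higher, beside 14.9% of all genes. Schwann cell markers were lower for 3 of 5 (361 to 458 against 494 to 502 CPM, nearly all from Pmp22, which was not called) and keratinocyte markers were called for 0 of 4 by edgeR, 0 at an unadjusted p under 0.05 and 0 by DESeq2 (5.39 to 8.12 against 6.90 to 8.68 CPM). No marker was at 0 in all 4 libraries. Of the genes for proteins sorted against, Ptprc, which encodes CD45, lay between 0.0499 and 0.168 CPM. Tek, the gene of Tie2, was far higher, with 28.8 CPM (cKO 3) as its lowest level and 39.7 CPM (WT 2) as its highest. Its difference was not called (-0.21, edgeR adjusted p = 0.465). Tek was the largest single part of the endothelial sum in every library. The part of these cells in the results below was not tested, and in bulk RNA fewer cells of a type and less RNA per cell cannot be told apart.

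In the libraries labelled cKO, 6 of the 37 synthetase genes were higher (16.2%) and 0 were lower. This is close to the background, since 14.1% of all genes tested were called higher and 14.3% lower by the same test. Of the cytosolic enzymes 5 of 20 were higher (25%), namely Sars, Mars1, Farsa, Yars and Qars, and of the mitochondrial enzymes 1 of 17 (5.88%), Fars2. At an unadjusted p under 0.05, 11 members were higher and 1, Eprs, was lower, against 21.7% and 22.3% of all genes tested, and DESeq2 called the same 6 members higher and 0 lower (13.5% and 13% of all genes). The called members handle serine, methionine, phenylalanine, tyrosine and glutamine, and they do not belong to a single branch of the family, since class I and class II, the unrelated catalytic folds of synthetases, held 3 of 19 and 3 of 18 of them.

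Sars, the cytosolic seryl-tRNA synthetase, which also charges the selenocysteine tRNA, had the largest fold change of the 37. WT 2 had 71.8 CPM and WT 3 had 102 CPM, while cKO 2 and cKO 3 had 212 and 213 CPM. The groups did not overlap, and WT 3 lay above WT 2 by more than the libraries labelled cKO lay apart. The log2 fold change was 1.29 (SE 0.23, edgeR, Benjamini-Hochberg adjusted p = 0.0149).

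Mars1, the methionyl-tRNA synthetase that supplies initiator and elongator tRNA, had 52.8 and 59.3 CPM under the WT label and 102 and 103 CPM under the cKO label. This was a log2 fold change of 0.87 (SE 0.19, edgeR adjusted p = 0.0187). The 3′ end of Mars1 shares 68 bases with Ddit3, an ATF4 target on the other strand, which was at 11.8, 14.3, 18.5 and 13.8 CPM and was not called.

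Farsa encodes the catalytic alpha subunit of the cytosolic phenylalanyl-tRNA synthetase and rose from 35.9 and 37.4 CPM to 67.9 and 64.8 CPM, a log2 fold change of 0.86 (SE 0.19, edgeR adjusted p = 0.0195). Farsb encodes the beta subunit of the same enzyme and was at 39.2, 48.0, 59.0 and 52.8 CPM. Its libraries labelled cKO also lay above both libraries labelled WT, but the difference of 0.36 (SE 0.20) did not pass the test (edgeR adjusted p = 0.208). The difference between the subunits was not tested.

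Yars, the tyrosyl-tRNA synthetase, was at 63.4 and 76.6 CPM against 119 and 129 CPM, a log2 fold change of 0.83 (SE 0.20, edgeR adjusted p = 0.0232). Qars, the glutaminyl-tRNA synthetase of the multisynthetase complex, was at 88.2 and 90.05 CPM against 146 and 150 CPM, a log2 fold change of 0.73 (SE 0.18, edgeR adjusted p = 0.0265). In both genes the groups were far apart beside the spread within them.

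Fars2, the mitochondrial phenylalanyl-tRNA synthetase, was the only mitochondrial member called. WT 2 had 13.1 CPM and WT 3 had 18.4 CPM, against 30.3 CPM in cKO 2 and 36.8 CPM in cKO 3, a log2 fold change of 1.09 (SE 0.24, edgeR adjusted p = 0.0201). Both pairs were spread, and the groups stayed apart. Of the Fars2 exons 8.72% lie opposite Nrn1, a neuritin gene that was at 11.7, 17.4, 23.8 and 23.9 CPM, and 2% lie opposite Lyrm4. The study's methods give featureCounts at its default strand setting, while the submitters' processing notes name HTSeq. How reads over such shared bases were assigned was not tested, so these reads may be missing or counted for either gene.

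**Figure D1:**
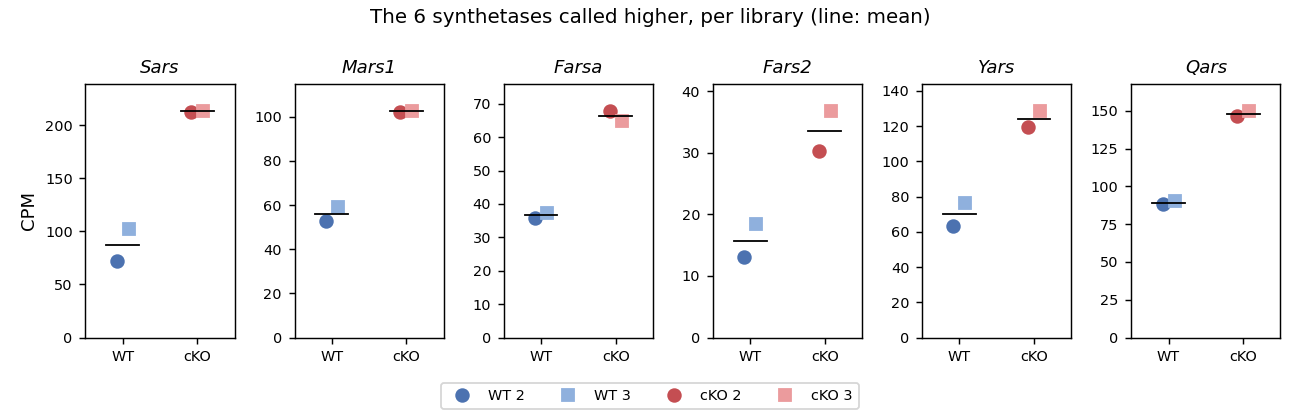
CPM of the 6 synthetases called higher, 1 panel per gene with its own axis from 0, points for the libraries and a line for the mean of each label. In every panel both libraries labelled cKO lie above both labelled WT, from Sars (71.8 and 102 against 212 and 213 CPM) to Qars (88.2 and 90.05 against 146 and 150 CPM).

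All 6 calls rest on both libraries labelled cKO. Without cKO 2, or without cKO 3, 0 of 37 members were called by edgeR, with adjusted p for Sars of 0.0588 and 0.0578, the lone library being assumed to vary like the other label. The share of all genes called then fell to 3.03% higher and 2.98% lower without cKO 2, and to 2.91% and 4.35% without cKO 3. Without WT 2 the calls were 6 cytosolic and 4 mitochondrial members higher and 2 cytosolic members lower (17.8% higher and 15% lower over all genes). Without WT 3 they were 14 and 5 higher and 2 lower (26.2% and 25% over all genes). The 6 members called with all libraries kept their direction in each of these fits.

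The other 31 members did not pass the test. Among the cytosolic enzymes Dars (0.52, edgeR adjusted p = 0.075), Kars (0.45), Wars (0.40), Vars (0.37), Hars (0.37), Nars (0.36), Farsb (0.36), Cars (0.31), Gars (0.26) and Rars (0.09) had log2 fold changes above 0. Tars (-0.01), Aars (-0.09), Iars (-0.17), Lars (-0.45) and Eprs (-0.46) had values below 0. Eprs was the member nearest to a call in that direction, at 206 and 213 CPM against 160 and 146 CPM (SE 0.20, edgeR adjusted p = 0.11). Lars, the leucyl-tRNA synthetase that also acts as a leucine sensor of mTORC1, was at 41.1, 58.4, 33.1 and 39.6 CPM, so that its libraries labelled cKO lay below both libraries labelled WT, cKO 3 by little.

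Among the mitochondrial enzymes Pars2 (0.88), Ears2 (0.68), Lars2 (0.57), Wars2 (0.51), Tars2 (0.50), Nars2 (0.36), Sars2 (0.28), Vars2 (0.27), Yars2 (0.25), Hars2 (0.25), Aars2 (0.11) and Cars2 (0.08) had values above 0. Iars2 (-0.07), Rars2 (-0.09) and Mars2 (-0.31) had values below 0. Ears2, which also loads glutamate on the glutamine tRNA of mitochondria, was at 7.88 and 7.78 CPM against 12.7 and 12.3 CPM, a difference far larger than the spread within either pair, yet it did not pass the test across all genes (edgeR adjusted p = 0.0629). Pars2 was at 2.74 and 2.95 CPM against 3.90 and 6.62 CPM (55 to 118 counts).

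**Figure D2:**
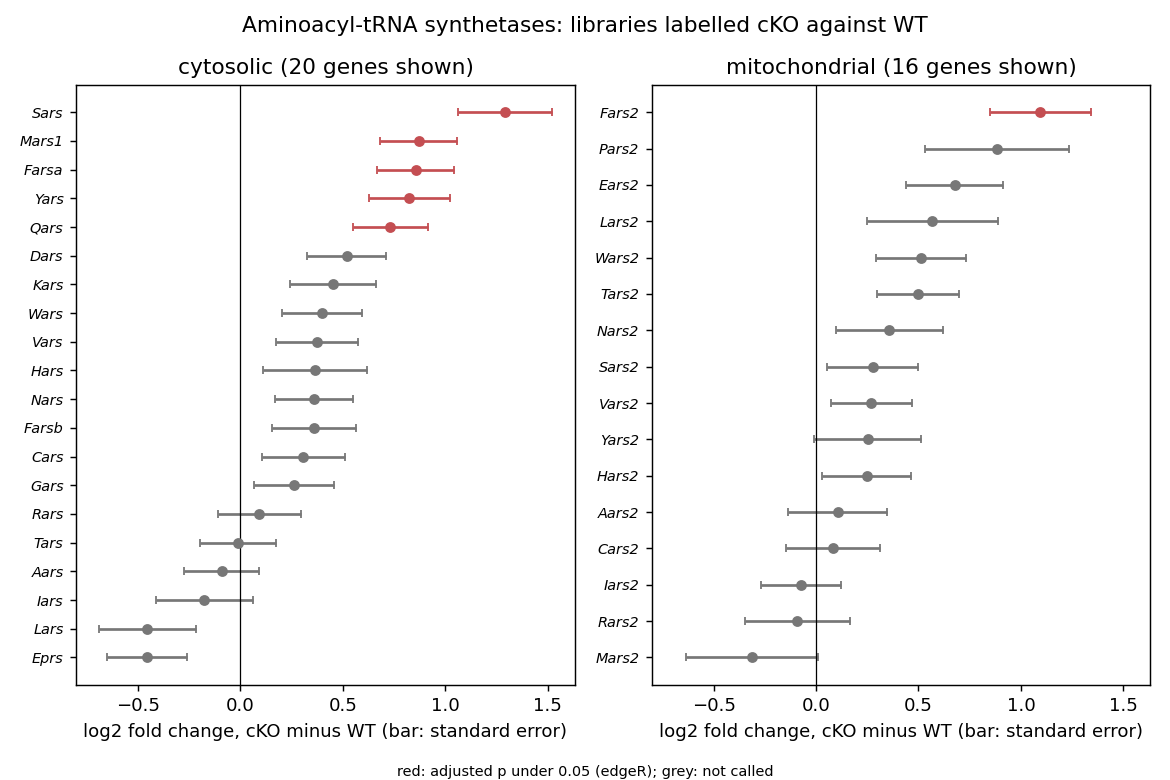
Log2 fold change of the synthetases named in the text, libraries labelled cKO minus WT, with its standard error as a bar, cytosolic genes on the left and mitochondrial genes on the right, and called genes in red. Most points lie to the right of 0 in both panels, with Sars at 1.29 and Fars2 at 1.09 at the top and Eprs at -0.46 and Mars2 at -0.31 at the bottom.

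The median log2 fold change was 0.36 over the 20 cytosolic and 0.28 over the 17 mitochondrial members, beside -0.02 over all genes tested. The values were above 0 for 15 and 14 of them. In 23 of 37 members both libraries labelled cKO lay above both labelled WT, a pattern that 36.3% of all genes tested showed, and in 3 (Aars, Eprs and Lars) they lay below, as in 36.2% of all genes. The difference between the compartments was not tested.

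The shift depended on the scaling. Libraries scaled to their total counts in place of TMM had a median of -0.30 over all genes tested, and the medians of the synthetases became 0.09 (cytosolic) and 0.00 (mitochondrial). A change of scaling moves the log2 fold change of every gene by nearly the same amount. That the synthetases stood above all genes by about as much as before follows from this and adds no support. Under that scaling Sars, Mars1 and Fars2 were still called higher, Farsa, Qars and Yars were not, and Eprs was called lower (-0.73, edgeR adjusted p = 0.0274). Over all genes the calls became 1094 higher (6.77%) and 3859 lower (23.9%), in place of 2275 and 2314. As a share of all counts the cytosolic members took 0.168% and 0.188% in the libraries labelled WT and 0.186% and 0.19% in those labelled cKO, and the mitochondrial members 0.0269%, 0.0285%, 0.0277% and 0.0294%. These shares overlap between the labels, while the sums after TMM scaling (1530 and 1709 against 2083 and 2058 CPM for the cytosolic members, 245 and 260 against 311 and 318 CPM for the mitochondrial ones) do not.

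Fold change also moved with gene length in these libraries. Among protein-coding genes the median log2 fold change fell from 0.73 in the 10% with the shortest exons to -0.76 in the 10% with the longest. Across the 37 synthetases Spearman's rho with exon length was -0.17, beside -0.49 across 13888 protein-coding genes, values that describe genes of the same 4 libraries. With a correction for exon length all 6 calls held, and Dars, Ears2, Lars2, Tars2 and Wars2 were called higher as well, so that the counts became 6 of 20 cytosolic and 5 of 17 mitochondrial members, beside 16.5% of all genes called higher and 12.7% lower. Lars2 moved the most among these, from 0.57 to 1.22. The correction left a rho of 0.43 with exon length across the 37 synthetases, beside -0.11 across the protein-coding genes. Under it Eprs went from -0.46 to 0.47, Aars from -0.09 to 0.38, Iars2 from -0.07 to 0.38 and Mars2 from -0.31 to 0.34. Tars (-0.01 to 0.17) and Rars (0.09 to -0.06) turned in sign as well, while Lars2, with 11089 bases of exon, did not. The exons annotated for Eprs span 18102 bases against 4906 in its principal transcript, and with principal transcript lengths in the correction Eprs kept its sign while 6 cytosolic and 3 mitochondrial members were called higher, beside 14.9% of all genes. They were the 6 members called without a correction and Vars, Vars2 and Wars2. Dars, Ears2, Lars2 and Tars2, called with exon lengths, were then not called.

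**Figure D3:**
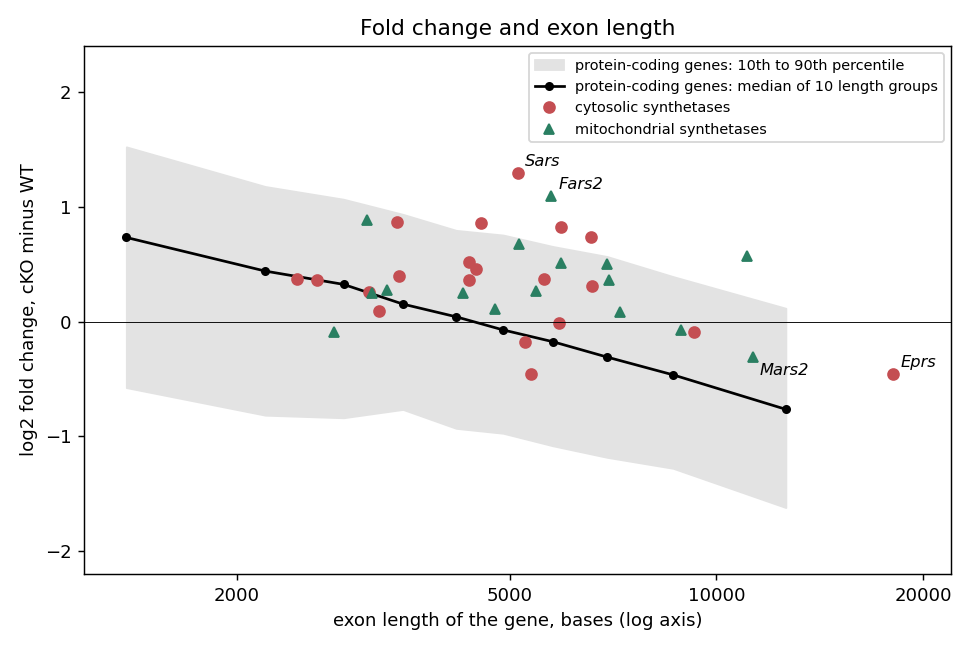
Log2 fold change, libraries labelled cKO minus WT, against the exon length of the gene on a log axis, with the median (black line) and the 10th to 90th percentile (grey band) of protein-coding genes in 10 length groups, and the cytosolic (red circles) and mitochondrial (green triangles) synthetases. The line falls from 0.73 to -0.76, and most synthetases lie above it, among them Sars at 1.29, Fars2 at 1.09 and, at the longest exons, Eprs at -0.46.

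Promoter sequences, the 250 bases before to 50 after the start in RefSeq on GRCm38.p6, were at hand for 27 of the 37 members (13 cytosolic and 14 mitochondrial). They were searched on both strands because ATF4 is the best known regulator of the cytosolic genes. The element TGATGNAA, which ATF4 and C/EBP partners bind, stood in 5 of 13 cytosolic promoters (Aars, Gars, Iars, Tars and Yars) and in 0 of 14 mitochondrial ones, beside 4.51% of 27025 genes with a promoter. The windows from 150 bases before to 20 after the start of the 5 genes follow, with the element in capitals on the strand of the gene. They are Yars at chr4:129189753-129189922 (+), Aars at chr8:111033692-111033861 (+), Gars at chr6:55037851-55038020 (+), Iars at chr13:49681980-49682149 (+) and Tars at chr15:11399639-11399808 (-).
Yars: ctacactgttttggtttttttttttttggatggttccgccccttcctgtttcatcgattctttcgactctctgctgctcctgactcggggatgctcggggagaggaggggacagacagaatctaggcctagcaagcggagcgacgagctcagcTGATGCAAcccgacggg
Aars: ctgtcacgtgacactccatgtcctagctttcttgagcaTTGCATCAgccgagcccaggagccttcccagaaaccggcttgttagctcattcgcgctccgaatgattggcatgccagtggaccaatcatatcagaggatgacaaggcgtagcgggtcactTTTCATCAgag
Gars: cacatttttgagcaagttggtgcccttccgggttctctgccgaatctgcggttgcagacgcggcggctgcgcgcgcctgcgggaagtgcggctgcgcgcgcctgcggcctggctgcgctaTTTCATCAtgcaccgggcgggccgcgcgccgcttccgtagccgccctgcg
Iars: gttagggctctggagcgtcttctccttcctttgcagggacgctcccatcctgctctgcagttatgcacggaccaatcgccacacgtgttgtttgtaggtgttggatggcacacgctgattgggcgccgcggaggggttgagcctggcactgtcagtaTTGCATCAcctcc
Tars: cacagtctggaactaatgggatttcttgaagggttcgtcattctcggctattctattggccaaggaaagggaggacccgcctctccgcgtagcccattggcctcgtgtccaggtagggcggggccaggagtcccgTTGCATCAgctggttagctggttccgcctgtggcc

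Of these 5 genes only Yars was called. Aars, with 2 matches, was at 102 and 99.5 CPM against 92.8 and 96.2 CPM, and Tars, at 60.5, 64.0, 63.1 and 60.4 CPM, hardly differed between any libraries. Iars overlapped between the labels (82.1, 55.0, 65.4 and 56.1 CPM), and Gars was at 130 and 145 CPM against 170 and 160 CPM with no call (0.26, edgeR adjusted p = 0.327). No match was found in Sars, Mars1, Farsa, Qars or Fars2, which says only that these letters are not in these windows.

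The ETS family site CCGGAAG was in 5 of 13 cytosolic promoters (Farsa, Gars, Kars, Mars1 and Sars) and in 4 of 14 mitochondrial ones (Cars2, Mars2, Rars2 and Sars2), beside 9.93% of genes. Of the called members it was in Sars, Mars1 and Farsa. The windows of the first of these follow because they carry the largest cytosolic fold changes, with the site in capitals. They are Sars at chr3:108445240-108445409 (-) and Mars1 at chr10:127311767-127311936 (-).
Sars: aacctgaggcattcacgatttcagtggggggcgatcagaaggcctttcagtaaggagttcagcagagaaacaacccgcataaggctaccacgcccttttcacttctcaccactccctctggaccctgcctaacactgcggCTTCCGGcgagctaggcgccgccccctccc
Mars1: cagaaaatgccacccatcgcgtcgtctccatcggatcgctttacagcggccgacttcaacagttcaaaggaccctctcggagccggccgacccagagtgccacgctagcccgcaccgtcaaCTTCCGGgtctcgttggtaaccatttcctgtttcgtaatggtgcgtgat

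Sites of other factors were spread over both compartments. The NRF1 site (GCGC, any 2 bases, GCGC), of a factor that regulates many nuclear genes for mitochondrial proteins, was in 3 cytosolic (Farsb, Kars and Tars) and 2 mitochondrial promoters (Iars2 and Mars2), beside 7% of genes. The E-box CACGTG was in 4 and 1 (8.09% of genes), the YY1 site AAGATGGC in 1 and 3 (3.19%), and the ERR site AAGGTCA in 0 and 0 (5.38%). A match is a run of letters and not a bound site.

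Per kilobase of annotated exon, Gars had the highest level of the family, at 41.7, 46.6, 54.6 and 51.2 RPKM in WT 2, WT 3, cKO 2 and cKO 3. Kars followed at 24.7, 32.0, 39.7 and 38.0 RPKM, and Vars, the valyl-tRNA synthetase, at 25.2, 27.2, 31.5 and 36.5 RPKM. Sars (mean 29.2 RPKM over all libraries) was next, at 14.0 and 19.9 RPKM in the libraries labelled WT and 41.3 and 41.5 RPKM in those labelled cKO. With these exon lengths Sars lay below Kars and Vars in both libraries labelled WT and above them in both labelled cKO. Kars lay above Vars in both libraries labelled cKO, while in those labelled WT the ranges of Kars and Vars overlapped. With principal transcript lengths Sars lay below Kars in every library (59.5 and 59.8 against 88.2 and 84.6 in cKO 2 and cKO 3). Kars then lay above Vars in every library. With principal transcript lengths Kars (74.7) and Gars (63.6) had the highest means. With exon lengths all 20 cytosolic genes ranked above all 17 mitochondrial genes in mean RPKM, though the lowest cytosolic member, Cars (5.73), and the highest mitochondrial one, Sars2 (5.72), did not differ beyond their spread. With principal transcript lengths Lars (10.8) lay below Fars2 (11.6) and Tars2 (10.98). Mars2, a gene with a single exon of 11294 bases, was the lowest at 0.592, 0.379, 0.360 and 0.422 RPKM.

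Enzymes for the same amino acid were compared within each library, which removes the scaling between libraries. In 18 of 18 pairs the mitochondrial gene lay below the cytosolic gene per kilobase of exon in every library. The median log2 ratio was -2.27, and -2.01 with principal transcript lengths. The change of the ratio from the libraries labelled WT to those labelled cKO had a median of 0.04 and ran from -1.15 to 1.29 over the pairs. The median was 0.17 and 0.19 when the change was taken from the fits corrected for exon length and for principal transcript length.

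The ratio was lower in both libraries labelled cKO than in both labelled WT in 5 of 18 pairs, and higher in 5. Ratios of other genes were not compared. In CPM, 36.2% of all genes tested lay below in this way and 36.3% above. The pairs that were lower come first. Sars2 to Sars went from -1.63 and -1.77 to -2.72 and -2.73, and the mitochondrial gene went from 30.8% to 15.2% of the cytosolic level. Mars2 to Mars1 went from -4.70 and -5.51 to -6.37 and -6.14, and Yars2 to Yars from -1.63 and -1.61 to -1.92 and -2.50. These are pairs whose cytosolic gene was called and whose mitochondrial gene was not. Cars2 to Cars moved by -0.22 and Rars2 to Rars by -0.20. These ratios carry no correction for the length trend in fold change. Taken from the fits with the exon-length and with the principal transcript length correction, the change was -1.24 and -1.41 for Sars2 to Sars and -0.92 and -0.97 for Yars2 to Yars. For Mars2 to Mars1 it shrank from -1.15 to -0.39 and -0.05, and for Cars2 to Cars it was -0.17 and -0.55.

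The ratio was higher in 5 pairs. Ears2 to Eprs went from -2.89 and -2.96 to -1.84 and -1.74, with a small spread within both labels, and Pars2 to Eprs from -3.67 and -3.61 to -2.80 and -1.90. Lars2 to Lars moved by 1.04, but the libraries labelled WT alone were 1.29 apart (-2.87 and -4.16). Tars2 to Tars moved by 0.51 and Fars2 to Farsb by 0.74. With the exon-length and the principal transcript length correction the change of Ears2 to Eprs shrank from 1.13 to 0.30 and 0.51, and that of Pars2 to Eprs from 1.29 to 0.24 and 0.77. That of Lars2 to Lars was 1.56 and 1.03, that of Fars2 to Farsb 1.11 and 0.77, and that of Tars2 to Tars 0.62 and 0.18. Fars2 to Farsa moved by 0.25 and overlapped, since both genes rose. The other 7 pairs overlapped as well, among them Nars2 to Nars with a change of 0.00.

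**Figure D4:**
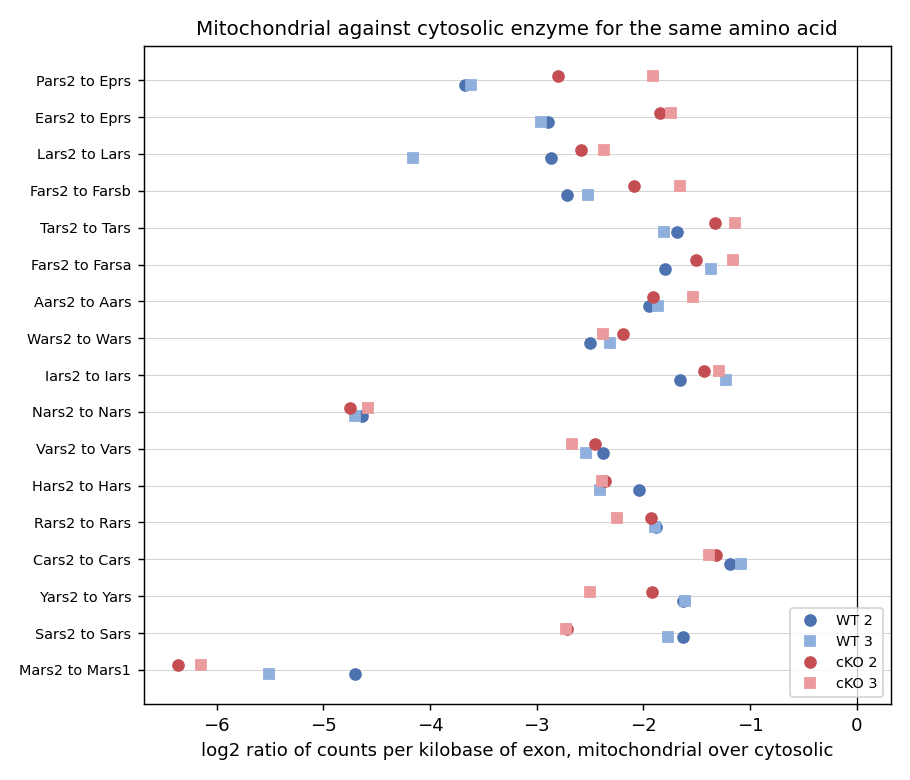
Log2 ratio of counts per kilobase of exon, mitochondrial over cytosolic gene, for 17 of the 18 pairs in each library, ordered by the change between labels, blue for libraries labelled WT and red for cKO. All points lie left of 0, Mars2 to Mars1, Sars2 to Sars and Yars2 to Yars at the bottom shift left in the libraries labelled cKO, and Ears2 to Eprs and Pars2 to Eprs at the top shift right.

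In the cytosol 8 of the synthetase genes encode enzymes of the multisynthetase complex, and 2 of them (Qars and Mars1) were higher, beside 3 of the 12 outside it. Both shares are 25%, beside 14.1% of all genes tested. The scaffold that holds the complex together was higher in 3 of 3 genes. Aimp2, which holds Dars and other members in place, was at 15.96 and 20.4 CPM against 49.9 and 49.2 CPM, a log2 fold change of 1.45 (SE 0.22, edgeR adjusted p = 0.0127), and it was still called without any single library. With the principal transcript length correction it was at 0.80 and still called. Eef1e1 (AIMP3), which binds the methionyl enzyme, was at 7.43 and 11.5 CPM against 26.2 and 19.8 CPM (1.279, edgeR adjusted p = 0.0198). With a library left out in turn it ranged from 1.00 to 1.63 and was not called without cKO 2. Aimp1, whose C-terminal part is released as a cytokine, was at 25.8 and 41.8 CPM against 66.6 and 60.4 CPM (0.91, edgeR adjusted p = 0.0357), and it was not called with the principal transcript length correction (adjusted p = 0.174) or with total counts in place of TMM (adjusted p = 0.0925). With a library left out in turn Aimp1 ranged from 0.61 to 1.30 and was not called without cKO 2 or without cKO 3.

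Of the factors that assist or proofread charging 3 of 8 tested were higher (37.5%, beside 14.1% of all genes tested) and 0 lower (14.3% of all genes). Their median was 0.64, with 0 lower at an unadjusted p under 0.05 and 0 by DESeq2 (22.3% and 13% of all genes). Hint1, a hydrolase that clears aminoacyl-adenylates, had a log2 fold change of 1.47, Pstk, the kinase that prepares the selenocysteine tRNA after Sars has charged it with serine, 1.07, and Dtd1, which removes D-amino acids from tRNA, 0.99 (edgeR adjusted p = 0.0135, 0.0217 and 0.0315). With the principal transcript length correction 1 of the 8 was higher, Hint1 at 0.52, beside 14.9% of all genes. Pstk (edgeR adjusted p = 0.0795) and Dtd1 (edgeR adjusted p = 0.195) were then not called. Sepsecs, which completes selenocysteine on that tRNA, was not called (-0.12). Of 4 genes for the mitochondrial glutamine tRNA amidotransferase and methionine tRNA formylation 1 was higher (25%, beside 14.1% of all genes tested). This was Gatb, at 5.09 and 6.60 CPM against 10.02 and 11.6 CPM (0.89, edgeR adjusted p = 0.0425), which neither DESeq2 nor edgeR with total counts called. Gatc (-0.50) and Qrsl1 (-0.23), the other subunits of the amidotransferase, and Mtfmt (0.28) were not called, though Gatc was called lower with either length correction and with total counts.

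Mitochondrial tRNA processing and modification had 3 of 19 genes higher (15.8%, close to the 14.1% of all genes tested) and 1 lower (14.3% of all genes), with a median of 0.29. Pus1, a pseudouridine synthase (1.10), Hsd17b10, a subunit of mitochondrial RNase P (0.99), and Gtpbp3, a wobble uridine modifier (0.85), were higher. Hsd17b10 was not called with the principal transcript length correction (0.26, edgeR adjusted p = 0.196), and with total counts in place of TMM Pus1 was the only gene of this list called higher. Qtrt2, a subunit of the enzyme that inserts queuosine, was lower, at 25.8 and 21.7 CPM against 11.5 and 10.7 CPM (-1.10, edgeR adjusted p = 0.0171). Of 10 mitochondrial translation factors tested 4 were higher (40%, beside 14.1% of all genes) and 0 lower (14.3% of all genes). Their median was 0.61, with 0 lower at an unadjusted p under 0.05 and 0 by DESeq2. The 4 were Mrpl58 (1.26), Mtif3 (1.23), Tufm (1.00), which brings charged tRNA to the mitochondrial ribosome, and Mrrf (0.88). With total counts 2 of them were called, Mrpl58 and Mtif3, and with the principal transcript length correction all 4 were, Tufm at 0.60.

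Of 28 genes that sense uncharged tRNA or answer through ATF4, 8 were higher (28.6%, beside 14.1% of all genes tested) and 4 lower (the same share as the 14.3% of all genes), with a median of 0.26. Pck2 (1.49), Phgdh (1.36), Ddit4 (1.22) and Psat1 (1.06) had the smallest p of those called higher, and the others were Atf5 (1.15), Trib3 (1.19), Shmt2 (0.77) and Cth (1.06), of which DESeq2 did not call Trib3 and Cth. Eif2ak4, which encodes GCN2, was lower, at 28.6 and 23.6 CPM against 14.3 and 15.9 CPM (-0.79, edgeR adjusted p = 0.0333), as were Impact, an inhibitor of GCN2 activation (-0.79), Slc7a1 (-1.45) and Atf3 (-0.88). Eif2ak4 lost its call with the exon-length (-0.44, adjusted p = 0.0879) and the principal transcript length correction (-0.39, adjusted p = 0.0961), and Slc7a1 kept it at -0.74 and -0.69. With total counts 5 of the 28 were higher and 5 lower. Atf4 itself was at 380, 472, 552 and 503 CPM and was not called (0.31, edgeR adjusted p = 0.333). Of other ATF4 targets in mammalian cells, Asns (0.26), Ddit3 (0.30) and Chac1 (0.73) were not called.

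Some other members also share exon bases with a neighbouring gene. Of the Aars exons 14.3% lie within Exosc6 on the same strand, and Exosc6 was listed at 0 counts in all 4 libraries. Of the Iars2 exons 22.9% lie opposite Rab3gap2, and Hars and Hars2 share 195 bases of exons on opposite strands. Processed pseudogenes were found for Iars (Gm4849, 96.0% identity over 1656 bases, 0 to 4 counts) and Vars (Gm14780, 90.4% over 333 bases, 0 to 6 counts). Among the called members the shared bases were 1.99% of the exons of Mars1 and 0.505% of those of Yars, beside those given for Fars2.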

How the data were processed

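Poly(A) RNA of 4 libraries was sequenced, and the authors deposited a table of raw read counts per gene for 55487 genes, which was used as deposited. By the study's methods reads were aligned to mm10 with STAR and counted with featureCounts on GENCODE vM25 exons at default strand setting, after a mapping quality filter. HTSeq 0.11.3 and the human build GRCh38.p12 stand in the submitters' processing notes beside DESeq2 1.28.1 and STAR 2.6.1b, although the gene IDs in the table are mouse IDs.

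Genes were kept by filterByExpr (minimum count of 10), scaled by TMM and tested with the quasi-likelihood test of edgeR 4.0.16 (R 4.3.3) with the label as the only term, and p-values were Benjamini-Hochberg adjusted over 16157 genes with a threshold of 0.05. Library totals were 18266573, 18489694, 20152872 and 19271414 counts. Exon lengths and coordinates came from GENCODE vM21 (99.5% of IDs matched). Ratios used a pseudocount of 0.5 counts. Promoters came from RefSeq (GRCm38.p6), and 27 of 37 members matched by symbol. No protein sequences were used. The values of 1 member are not reported here, though counts and medians include it. All members are accounted for, with values per library for up to 8 called members of smallest p and the 4 highest in RPKM, and up to 4 called genes of each related list (complex scaffold, charging accessory factors, amidotransferase and formylation, mitochondrial tRNA processing, mitochondrial translation factors, uncharged tRNA and ATF4). Other genes, among them Eprs, Lars, Ears2, Pars2, Sepsecs, Atf4 and Asns, were named after their values were seen. The members and lists were chosen with earlier results of these data known. On counts simulated for this comparison (15741 genes), edgeR called 31 of 100 genes changed by 1 log2 unit, 100 of 100 changed by 2, and 4 of 15541 unchanged genes. The simulation gave all genes a common dispersion. Alternatives were DESeq2 1.42.0 with and without ashr, other scalings and filters, length corrections (lowess, span 0.3), a replicate block and each library left out.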

Additional observations from a re-analysis of the deposited data

How the results depend on the processing

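The calls of the synthetases (5 cytosolic and 1 mitochondrial member higher, 0 lower) were the same with DESeq2 size factors, TMM without ribosomal protein and mitochondrial DNA genes, at least 10 counts in every library, DESeq2 with or without ashr and the study's limit on the log2 fold change, and edgeR with that limit. Leaving out a library in turn gave 0 to 14 cytosolic members higher, 0 to 2 lower and 0 to 5 mitochondrial members higher, medians of 0.255 to 0.438 (cytosolic) and 0.293 to 0.411 (mitochondrial), and 0.77 to 1.34 for Ecsit, whose call was lost without cKO 2 or cKO 3. In those fits the log2 fold change ranged from -0.137 to 0.305 for Aars2, -0.0642 to 0.258 for Cars2, -0.43 to 0.148 for Iars, -0.141 to 0.00837 for Iars2, -0.594 to 0.0497 for Mars2, -0.0464 to 0.258 for Rars, -0.334 to 0.104 for Rars2, -0.0441 to 0.0337 for Tars and -0.000676 to 0.455 for Yars2. With no filter 3 cytosolic members were higher, Ecsit (1.06) lost its call and Tars was at 0.0266. Tars was at 0.00384 with TMM without ribosomal protein genes. The cause of these moves was not tested. With the exon-length correction 5 mitochondrial members were higher (median 0.40), and Aars (0.382), Eprs (0.467), Iars2 (0.379), Mars2 (0.344), Rars (-0.0618) and Tars (0.169) turned. The principal transcript lengths, the total counts and the length corrections of the ratios were chosen after seeing the data. The median change of the ratio, 0.04, was 0.172 with the exon-length and 0.188 with the principal transcript length correction. With the principal transcript length correction 3 mitochondrial members were higher, the medians were 0.217 and 0.384, and Aars (0.383), Cars2 (-0.245), Iars (0.0893), Iars2 (0.365), Mars2 (0.774), Rars (-0.167), Sars2 (-0.0606), Tars (0.142) and Yars2 (-0.20) turned. With total counts in place of TMM 2 cytosolic members were higher and 1 lower, the medians were 0.0872 and 0.00192, Ecsit (0.744) lost its call, and Aars2 (-0.166), Cars2 (-0.194), Gars (-0.0144), Hars2 (-0.027), Rars (-0.184), Vars2 (-0.00478) and Yars2 (-0.0279) turned.

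Replicate numbers only name the libraries, and same-numbered libraries deviated in opposite directions from their label means (r = -0.18 across 11024 genes). The replicate block gave 5 cytosolic and 1 mitochondrial member higher. With the block and the exon-length correction 5 mitochondrial members were higher (median 0.408), and Aars (0.391), Eprs (0.505), Iars2 (0.381), Mars2 (0.343), Rars (-0.0612) and Tars (0.173) turned. A block that crosses the numbers, chosen after seeing the data, gave 5 and 1 alone and 9 and 6 with the exon-length correction (median 0.407), with Aars (0.391), Eprs (0.505), Iars2 (0.381), Mars2 (0.345), Rars (-0.0611) and Tars (0.173) turned. The share of all genes called was not counted for the block fits or the fit with no filter, so their counts stand without it. Over all alternatives 557 of 666 values of single members kept direction and side of the threshold, 17 lost and 44 gained a call, and 48 turned. In the simulated counts, with 2 libraries per label, changes of 1 log2 unit were often missed. Those counts had a common dispersion for all genes and few changed genes, so this rate need not hold for the synthetases. In the measured counts Qars (0.73) and Yars (0.83) were called.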

Other observations

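Among the 22 genes of mitochondrial tRNAs, the substrates of the mitochondrial synthetases, chosen after their values were seen, 18 had under 100 counts in every library, and libraries made from poly(A) RNA hold little mature tRNA. The counts came mainly from mt-Tn (213, 279, 707 and 847 counts in WT 2, WT 3, cKO 2 and cKO 3), mt-Tc (166, 278, 503 and 647) and mt-Tp (264, 280, 486 and 420). All of these were higher in counts in both libraries labelled cKO, an order that 36.3% of all genes tested showed in CPM. Of the 22 genes 8 were tested, and only mt-Tn (1.83), mt-Tc (1.55) and mt-Tp (0.91) were called, all higher. With the exon-length correction mt-Tn (1.05) and mt-Tc (0.80) kept the call and mt-Tp (0.11, edgeR adjusted p = 0.758) lost it. With total counts mt-Tp was not called either (edgeR adjusted p = 0.0525). mt-Te, the glutamate tRNA gene, had 119, 83, 61 and 79 counts and was not called (log2 fold change -0.36, edgeR adjusted p = 0.425). It was called lower with the exon-length correction (-1.22, edgeR adjusted p = 0.0446).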
